A study of Arabidopsis thaliana with 12 samples.

Results

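The chloroplast NADH dehydrogenase-like (NDH) complex was represented by 6 nuclear genes, each with a probe that the platform's gene table ties to that gene alone, out of 692 such single-gene probes and 3439 features in all. They were NdhN (AT5G58260) and NdhS (AT4G23890), which encode subunits of the complex, and PIFI (AT3G15840), CRR41 (AT1G51100), CRR21 (AT5G55740) and OTP85 (AT2G02980), which encode proteins needed for its activity, its assembly or the editing of its plastid transcripts. Total RNA of 6 Arabidopsis thaliana samples of the prors2 mutant and 6 wild-type (WT) samples, all of ecotype Columbia 0, was measured on 1-channel arrays. Per the labels, prors2 lacks a prolyl-tRNA synthetase, the enzyme that charges a tRNA with proline. The labels give neither tissue, age, growth conditions nor the nature of the allele, and whether each sample is a separate plant or culture is not said. The p-values below therefore cover the spread among the 12 samples alone and part of it may be technical.

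The NDH complex sits in the thylakoid membrane, takes electrons from reduced ferredoxin and passes them to plastoquinone. It thereby feeds cyclic electron flow around photosystem I and the dark reduction of the plastoquinone pool known as chlororespiration. Part of its subunits are encoded in the plastid and made on plastid ribosomes, and the others are encoded in the nucleus and imported. Transcripts of several plastid ndh genes have to be edited from C to U before they are translated, which needs nuclear-encoded pentatricopeptide repeat (PPR) proteins, each specific to a few sites.

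No probe was tied to the prolyl-tRNA synthetase genes AT5G52520 or AT3G62120 (0 probes each), so the genotype has no check at the transcript level here. The deposited values are intensities from 0 to 100 on a linear scale, named relative with no reference stated. The array medians ran from 0.135 to 0.169 in WT and from 0.279 to 0.305 in prors2, and an array had 368 to 396 features at 0 in WT and 262 to 316 in prors2. The number of arrays limits the precision. Of the green-tissue markers 5 of 6 had a single-gene probe, and of those listed for root, seed and senescence 0 of 5, 0 of 4 and 0 of 2, so the tissue could not be checked against other tissues. Because the array medians differed, the main differences below are on log2 values quantile-normalized between arrays. The median difference of the 3024 tested features was 0.07 on that scale and 0.76 on the deposited values. What the lower WT medians come from was not tested.

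None of the 6 NDH genes differed between prors2 and WT past the threshold after quantile normalization (0 of 6 at a limma adjusted p under 0.05, and 0 of 6 at an unadjusted p under 0.05). On the same test 47.2% of all tested features were called, 24.8% higher and 22.4% lower in prors2. The median log2 difference of the 6 genes was 0.19. The 2 subunits lay slightly above 0 and close to each other, and 2 of the factors lay below 0 and 2 above. Each of the 6 genes had overlapping values in the 2 genotypes, on the deposited and on the normalized values (0 of 6 without overlap on both), where 44.6% and 31.1% of the tested features did not overlap. In such bulk RNA, fewer cells of a type and less RNA per cell cannot be told apart.

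NdhN, a subunit of the stroma-exposed arm of the complex, had a deposited relative intensity of 0.533, 0.658 and 0.752 (lowest, median and highest of 6) in WT and of 0.743, 1.01 and 1.16 in prors2. Only the lowest prors2 value, that of replicate 2, fell within the WT range, just below its upper end. After normalization the level averaged 0.739 ± 0.085 (SD, n = 6) in WT and 0.890 ± 0.154 in prors2. On the log2 scale NdhN was higher by 0.26 with an SE of 0.13, short of the threshold (limma adjusted p = 0.141). The 95% interval of that difference ran from 0.975-fold to 1.46-fold. Without prors2 replicate 2 the difference was 0.35 and passed (limma adjusted p = 0.0266). The samples were also split into sets of neighbouring replicate numbers, formed from the numbers alone. On the normalized log2 scale NdhN differed by 0.13 in replicates 1 and 2, 0.24 in replicates 3 and 4 and 0.40 in replicates 5 and 6.

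NdhS (also CRR31), a subunit that provides the docking site for ferredoxin, had deposited values of 7.56, 8.07 and 10.7 (lowest, median and highest of 6) in WT and of 6.38, 7.74 and 9.0 in prors2. The ranges overlapped widely, and in both genotypes the highest value was that of replicate 4. NdhS stood at 7.41 ± 0.99 (SD, n = 6) in WT and 8.41 ± 0.93 in prors2 after normalization. The log2 values differed by 0.18 with an SE of 0.12 (limma adjusted p = 0.215), and the 95% interval ran from 0.955-fold to 1.35-fold. On the deposited values the same probe gave -0.16 (SE 0.12, limma adjusted p = 0.253). Same-numbered samples were higher in prors2 in 6 of 6 pairs after normalization and lower in 5 of 6 pairs as deposited, so the sign of this small difference rests on the scaling.

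PIFI is a stromal protein required for the NDH-dependent reduction of plastoquinone in the dark, but not a stable subunit. Its deposited values were 0.0474, 0.102 and 0.146 (lowest, median and highest of 6) in WT and 0.124, 0.174 and 0.214 in prors2. All 6 same-numbered pairs were higher in prors2 as deposited, and only 2 of 6 after normalization. The normalized log2 difference was -0.17 (SE 0.24, limma adjusted p = 0.613), with a 95% interval from 0.620-fold to 1.28-fold. PIFI lay at 0.13, -0.64 and 0.01 in the same 3 sets of samples.

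CRR41, a stromal factor for the assembly of the hydrophilic arm, had deposited values of 0.348, 0.426 and 0.523 (lowest, median and highest of 6) in WT and of 0.403, 0.528 and 0.743 in prors2. A single prors2 sample, replicate 2, lay well above the other 5, which ran from 0.403 to 0.536. Of these, replicates 4, 5 and 6, at 0.530, 0.526 and 0.536, lay just above the highest WT value. Replicate 1, at 0.521, lay just below it. The normalized log2 difference of CRR41 was the lowest of the 6 genes, at -0.26 (SE 0.18, limma adjusted p = 0.265; 95% interval 0.639-fold to 1.10-fold). It was 0.08, -0.29 and -0.56 within the 3 sets of replicate numbers.

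CRR21 and OTP85 are PPR proteins that each act on an editing site of the plastid ndhD transcript, which encodes a membrane subunit of the complex. CRR21 had deposited values of 0.230, 0.306 and 0.448 (lowest, median and highest of 6) in WT and of 0.347, 0.594 and 0.761 in prors2. Replicate 1 was the lowest and replicates 5 and 6 were the highest in both genotypes. CRR21 differed by 0.19 on the normalized log2 scale (SE 0.24, limma adjusted p = 0.558), between 0.792-fold and 1.64-fold in the 95% interval. With the replicate number as a block its difference was the same and the SE was 0.12 (limma adjusted p = 0.223). With that block 0 of 6 NDH genes passed, where 53.1% of the features did.

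OTP85 was the dimmest and the most scattered of the 6 probes. Its deposited values in WT replicates 1 to 6 were 0.00517, 0.0351, 0.0626, 0.0686, 0.0183 and 0.00968, and in prors2 replicates 1 to 6 it was listed at 0 and then at 0.0165, 0.202, 0.203, 0.237 and 0.169. The prors2 samples of replicates 3 to 6 all lay above the highest WT sample, while replicates 1 and 2 lay within or below the WT range. Over the 5 prors2 samples above 0 the normalized log2 difference of OTP85 was 1.44 (SE 0.84, limma adjusted p = 0.189), and its 95% interval, from 0.749-fold to 9.76-fold, is the widest of the 6. Set by set, in the order of the replicate numbers, it was -0.58, 0.78 and 2.67. Without prors2 replicate 2, and with replicate 1 missing at 0, the 4 prors2 samples left were replicates 3 to 6. On these OTP85 passed, at 2.16 (limma adjusted p = 0.0234). That pass rests on which samples were left out, since both low prors2 samples were then gone.

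**Figure D1:**
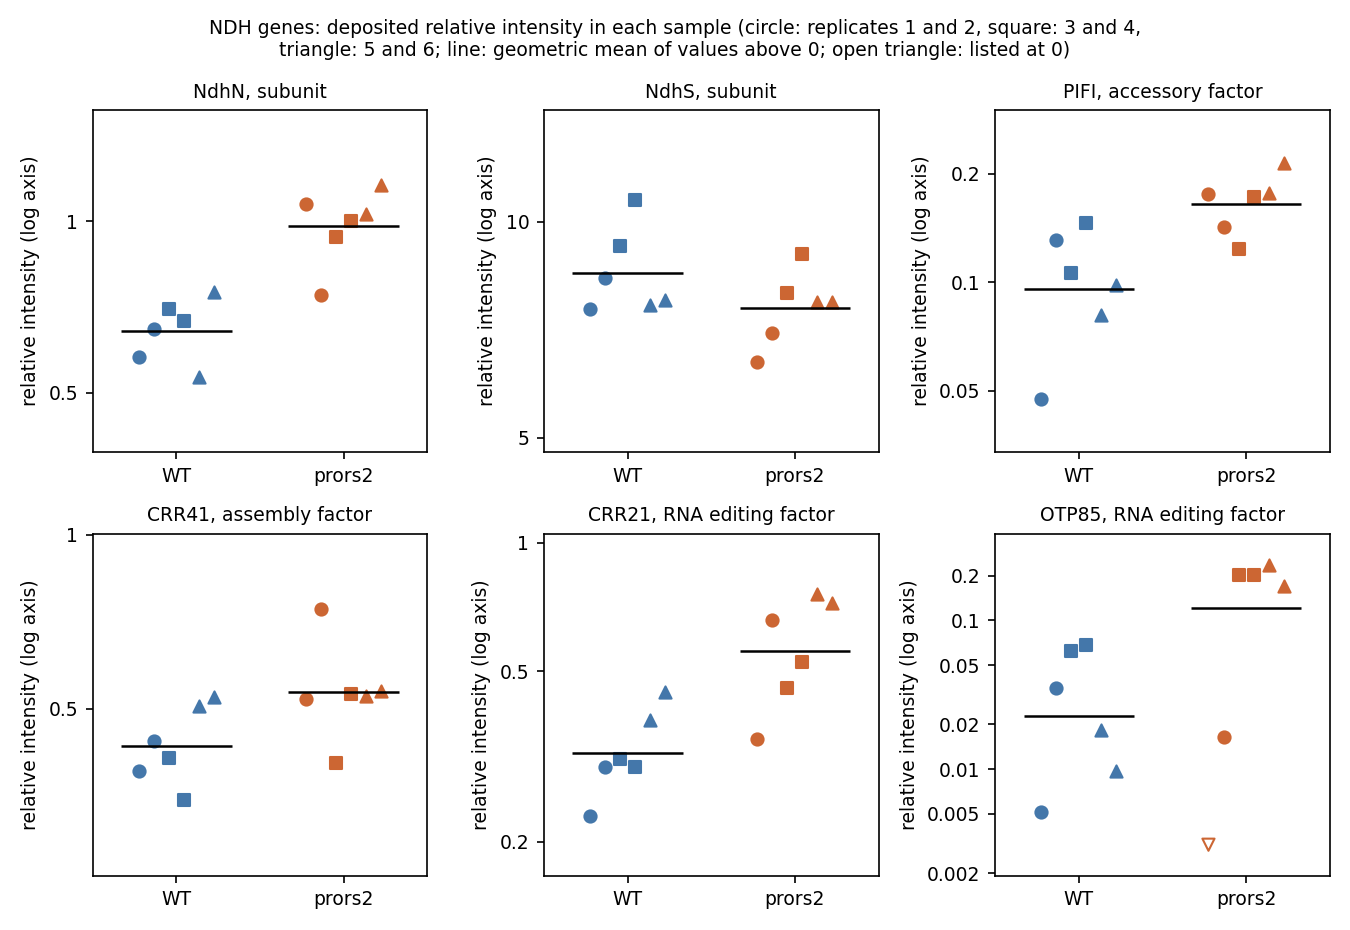
Deposited relative intensity (log axis, no unit) of the 6 NDH genes in the 6 WT and 6 prors2 samples, 1 point a sample, with a symbol for each set of neighbouring replicate numbers, and a line at the geometric mean of the values above 0. The genotypes overlap in all 6 panels, by 1 prors2 sample for NdhN, and the OTP85 sample listed at 0 is drawn as an open triangle below the lowest value.

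The scaling between arrays set the side of 0 on which most of these genes lay. On the deposited values 4 of 6 were called higher (NdhN, PIFI, CRR21 and OTP85) and 0 lower, where 57.8% of all tested features were called higher, 8.9% lower and 66.7% in either direction. Their log2 differences were 0.61, 0.79, 0.80 and 2.42, and relative to the median of all tested features -0.15, 0.02, 0.03 and 1.66. At equal sums of intensity the same count was 4 of 6 higher, against 55.0% of the features higher, 9.85% lower and 64.9% in all. After centring each array on its median, 0 were higher and 2 were lower, NdhS at -0.99 (SE 0.098, limma adjusted p = 5.12e-06) and CRR41 at -0.52 (SE 0.18, limma adjusted p = 0.0325), where 29.1% of the features were called lower, 19.8% higher and 49.0% in all. Cyclic loess, a scaling that follows brightness and was added after the data were seen, called 0 of 6 against 47.2% of the features (23.3% higher and 23.9% lower), with NdhN at 0.21 and NdhS at 0.01. OTP85 was the one gene that lay above 0 under all 5 scalings, from 1.28 to 2.42, but its value rests on the treatment of its 1 sample at 0. With zeros kept through an offset it was 0.34 (limma adjusted p = 0.614), and when they were set to the smallest value above 0 it was -2.07. Within quantile normalization, other treatments of zeros, other filters and other models called 0 of the NDH genes tested, 5 without the dimmest features or with complete features only, where OTP85 was not tested, and 6 otherwise. Leaving out prors2 replicate 2 called 2, as given above, where 1390 of 2991 tested features were called. The share of all features called was 48.3% with an offset for zeros, 43.4% with zeros at the lowest positive value, 57.9% without the dimmest features and 51.2% with features complete in 12 samples. It was 52.9% with sets of replicate numbers as a block, 47.5% with a trended, robust fit and 47.9% with array weights.

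**Figure D2:**
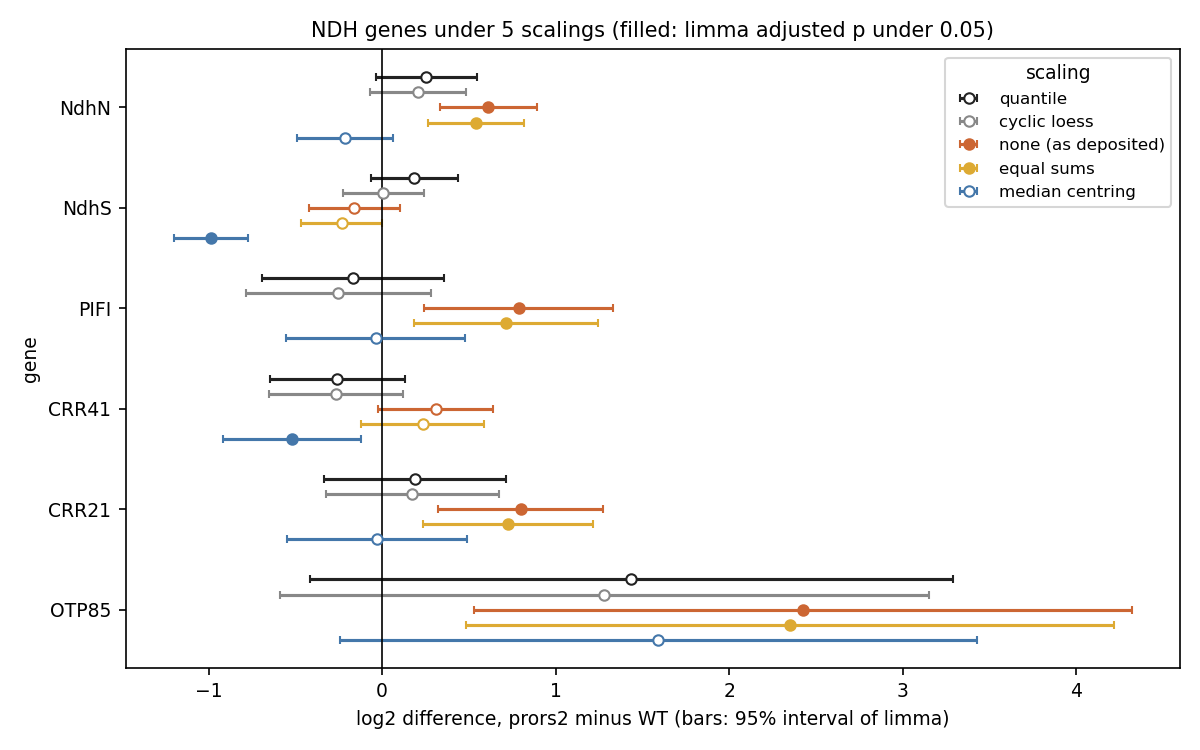
Log2 difference, prors2 minus WT, of the 6 NDH genes under 5 scalings between arrays, with 95% intervals of limma as bars and filled points where the limma adjusted p is under 0.05. NdhN, PIFI and CRR21 are called higher as deposited and at equal sums and lie within 0.26 of 0 under the other 3 scalings, while NdhS is called lower after median centring alone, at -0.99.

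The deposited difference between genotypes went down with the brightness of the feature. With the tested features split into 10 bins by mean log2 intensity, the median log2 difference fell from 1.14 in the dimmest bin to 0.10 in the brightest. NdhS, in bin 10, lay at -0.16 where the bin's median was 0.10. NdhN, in bin 9, lay at 0.61 against a bin median of 0.39, and CRR41, in bin 8, at 0.31 against 0.50. CRR21 in bin 7 lay at 0.80 against 0.75, and PIFI in bin 3 at 0.79 against 1.04. These 5 genes lay between the lower and upper quartiles of their bin. OTP85, in bin 1, lay at 2.42 against 1.14, above 90.4% of the features of that bin. The bins were drawn after the values had been seen, and what brightness contributes to any of these differences was not tested.

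**Figure D3:**
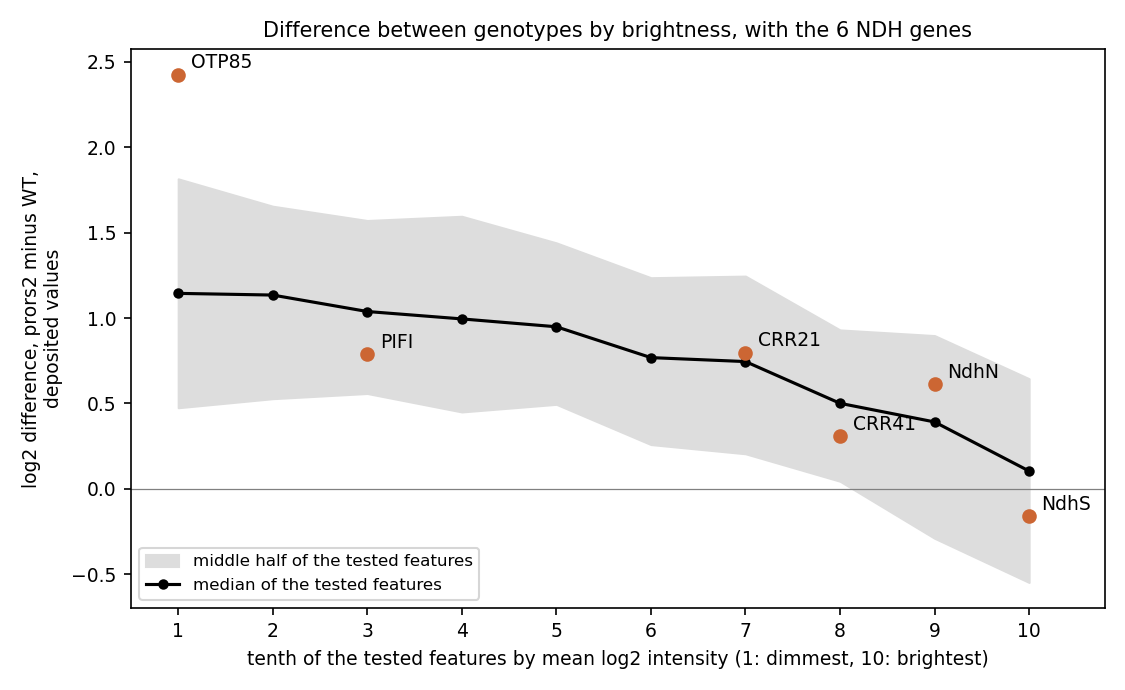
Log2 difference on the deposited values (prors2 minus WT) against brightness, in 10 bins of 302 or 303 tested features. The line is the median and the band runs from the lower to the upper quartile of a bin; the line goes down from 1.14 to 0.10, 5 of the 6 NDH genes (orange points) lie in the band and OTP85 lies above it at 2.42.

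How the genes moved relative to each other was asked from ratios within an array, which are free of any factor that multiplies a whole array. A difference that varies with brightness, as seen above, stays in them. Such a ratio shows unequal change between the genotypes; it does not tell which of 2 transcripts is more abundant, since 2 probes need not give the same signal per molecule. Among the 15 pairs of the 6 genes, 3 differed between genotypes on the deposited values (two-sided exact permutation test, Benjamini-Hochberg over the 15 pairs), and all 3 contained NdhS. With same-numbered samples kept together 0 of 15 were called: these 3, NdhS to CRR41 and CRR41 to CRR21 each went the same way in 6 of 6 pairs of samples, which gives the smallest p that test allows, 0.03125 (exact permutation test of signs, adjusted p = 0.0938). After adjustment that smallest p passes only if most of the 15 pairs reach it, so the count of 0 decides little. At an unadjusted exact permutation p of 0.05 or less there were 5 of 15 pairs, against 52.7% of all 129795 pairs of single-gene features with 12 values above 0. In 1 of 15 pairs the genotypes did not overlap, against 27.4% of all pairs. OTP85 lacks 12 values above 0 and so is not in that background. Among the 10 pairs without it the counts were 4 and 1.

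The pair without overlap was that of the 2 subunits. The ratio of NdhN to NdhS was 0.0765, 0.0774, 0.0760, 0.0624, 0.0696 and 0.0966 in WT replicates 1 to 6 and 0.168, 0.106, 0.118, 0.111, 0.133 and 0.150 in prors2 replicates 1 to 6. The lowest prors2 ratio, in replicate 2, lay just above the highest WT ratio, in replicate 6. On the log2 scale the ratio differed by 0.77 with an SE of 0.14, which is 1.71-fold. No exact permutation of 6 against 6 samples can give less than its p of 0.00216 (two-sided, adjusted p = 0.0325). Within the 3 sets of replicate numbers the difference was 0.80, 0.74 and 0.78. After quantile normalization the log2 ratio of NdhN to NdhS differed by 0.07 (SE 0.16, exact permutation test, adjusted p = 0.833). The 2 probes lay in neighbouring bins of brightness (9 and 10), with WT medians of 0.658 and 8.07 as deposited. What brightness contributes to their ratio was not tested.

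The other 2 pairs set NdhS against a factor. The log2 ratio of NdhS to PIFI went from 6.47 ± 0.46 (SD, n = 6) in WT to 5.52 ± 0.32 in prors2, a difference of -0.95 (SE 0.23, two-sided exact permutation test, adjusted p = 0.0325). The groups overlapped by a single sample on each side, WT replicate 2 at 5.998 and prors2 replicate 3 at 6.004. The log2 ratio of NdhS to CRR21 went from 4.72 ± 0.41 (SD, n = 6) to 3.77 ± 0.41, a difference of -0.96 (SE 0.24, exact permutation test, adjusted p = 0.0325). The call for NdhS to CRR21 was lost in 7 of the 12 fits that left out 1 sample (without WT replicates 1, 2, 3 or 4 or prors2 replicates 4, 5 or 6, adjusted p from 0.0541 to 0.0758). The median deposited log2 difference of the tested features was 0.10 in the brightness bin of NdhS. It was 1.04 in the bin of PIFI and 0.75 in that of CRR21. What brightness contributes to these 2 ratios was not tested. After quantile normalization these ratios differed by 0.35 and -0.01. There 0 of 15 pairs were called, 0 of 15 had an unadjusted exact permutation p of 0.05 or less (51.4% of all pairs did) and 0 of 15 were without overlap (26.0% of all pairs were).

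Of the 8 pairs of a subunit with a factor, NdhN stood in 4, and 0 of them differed past the threshold. The log2 ratio of NdhN to PIFI differed by -0.18 (SE 0.22), to CRR41 by 0.30 (SE 0.22), to CRR21 by -0.19 (SE 0.25) and to OTP85 by -1.84 (SE 0.87). Their exact permutation tests gave adjusted p of 0.526, 0.252, 0.526 and 0.130. NdhS, in the other 4, differed from CRR41 by -0.47 (SE 0.22) and from OTP85 by -2.53 (SE 0.88), with adjusted p of 0.130 and 0.0779 in the same exact permutation tests. These values rest in part on prors2 replicate 2. Without it the log2 ratio of NdhN to CRR41 differed by 0.48, past the threshold (exact permutation test, adjusted p = 0.0284). The ratios to OTP85, over 5 prors2 samples since replicate 1 was at 0, then had 4, replicates 3 to 6. All 4 had OTP85 values above the WT range. On these the log2 ratio to OTP85 differed by -2.47 for NdhN and -3.21 for NdhS, without overlap (exact permutation test, adjusted p = 0.0284 each). Both results rest on which samples were left out. Without prors2 replicate 1 the log2 ratio of NdhN to CRR21 was -0.35, short of the threshold (exact permutation test, adjusted p = 0.185). NdhN thus lay within the span of the factors' deposited differences, and NdhS had the lowest deposited difference of the 6.

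Among the factors, 0 of 6 pairs passed. The log2 ratio of CRR21 to OTP85 differed by -1.49 (SE 0.99, exact permutation test, adjusted p = 0.198) and ranged over 5.53 to 2.13 in WT and 5.33 to 1.18 in prors2. CRR41 against CRR21, the assembly factor against an editing factor, differed by -0.49 (SE 0.19, exact permutation test, p = 0.0260, adjusted p = 0.0779). It passed without prors2 replicate 1, at -0.62, and without prors2 replicate 2, at -0.54 (exact permutation test, adjusted p = 0.0244 and 0.0429). The ratios of PIFI, CRR41 and CRR21 to OTP85 also passed without prors2 replicate 2, at -2.33, -2.95 and -2.24 (exact permutation test, adjusted p = 0.0284, 0.0284 and 0.0429). These too had only 4 prors2 samples, with both low OTP85 samples gone. PIFI and CRR21 had nearly the same deposited difference, and their log2 ratio differed by -0.01 (SE 0.29, exact permutation test, adjusted p = 0.972).

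**Figure D4:**
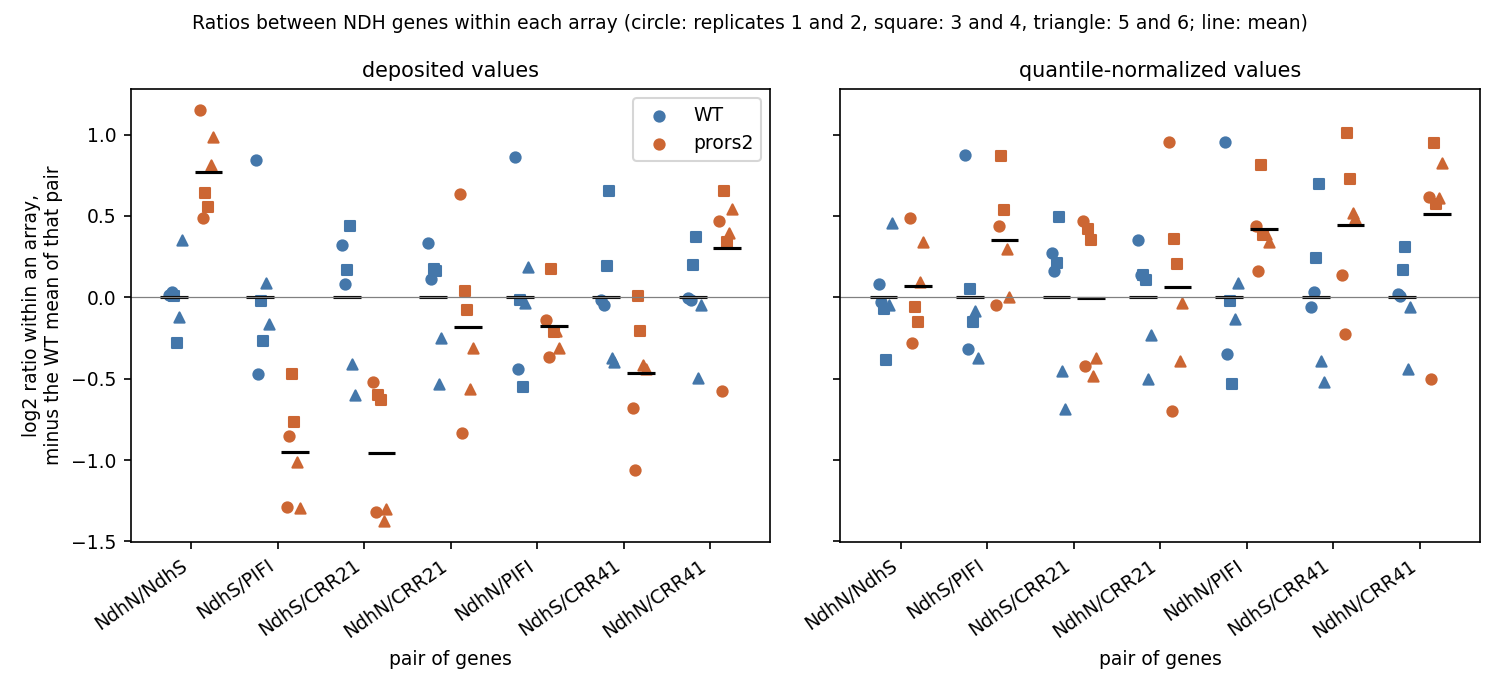
Log2 ratio within each array for 7 pairs of NDH genes that hold a subunit, minus the WT mean of that pair, for 6 WT and 6 prors2 samples (symbols as sets of replicate numbers, lines as means), on deposited values at left and quantile-normalized values at right. As deposited, all 6 prors2 samples lie above the WT samples for NdhN/NdhS and the means of NdhS/PIFI and NdhS/CRR21 lie 0.95 and 0.96 below WT; at right the genotypes overlap in all 7 pairs.

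The normalized values of the genes were also compared as deviations from their genotype's mean over the 12 samples, a description with no test. Among the 5 genes with 12 values above 0, Pearson correlations over these samples ran from -0.59 (NdhS and CRR41) to 0.55 (CRR41 and CRR21), and that of the 2 subunits was -0.03. Higher values were found with other genes on the array, the 2 highest of 509 candidates being named for each. NdhN deviated most like AT1G62780 (r = 0.85, n = 12) and CCL (r = 0.74), NdhS like AT4G17260 (r = 0.87) and XERICO (r = 0.81), and PIFI like AT5G44150 and AT2G46300 (both r = 0.80). CRR41 deviated most like AT3G58570 (r = 0.82) and AT5G22340 (r = 0.75), and CRR21 like AT3G08000 and AT3G61870 (both r = 0.91). Samples that share replicate numbers deviate together over the whole array, so these correlations share that source.

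Photosystem genes with a probe of their own gave a reference within the same thylakoid machinery. The 5 light-reaction genes used were chosen after values had been seen, and the array was not searched for all such genes. They were LHB1B2 (a photosystem II antenna protein), PSAN (a photosystem I subunit), PSBY and PSBW (photosystem II subunits) and PSB27 (a photosystem II assembly factor). The ratios of 5 of the 6 NDH genes to LHB1B2, to PSAN and to PSBY were higher in prors2 with no overlap between genotypes, on the deposited and on the normalized values. OTP85 overlapped, and its ratios covered 5 prors2 samples, as replicate 1, listed at 0, was missing. On these its ratios to the same 3 genes were also called higher on both scales (exact permutation test, adjusted p from 0.0115 to 0.0171 as deposited and from 0.0410 to 0.0487 as normalized). Ratios to these 3 genes that keep the sample at 0 were not computed. The 3 reference genes themselves fell: LHB1B2 differed by -1.23, PSAN by -1.24 and PSBY by -1.22 on the normalized log2 scale (limma adjusted p = 1.75e-07, 4.92e-06 and 2.88e-05), and these falls make up most of the ratios' differences for the 2 subunits, which themselves differed by 0.26 and 0.18. On that scale the log2 ratio to LHB1B2 was higher in prors2 by 1.49 for NdhN and by 1.42 for NdhS, both with an adjusted p of 0.00406 (two-sided exact permutation test, Benjamini-Hochberg over 30 pairs). Of the other 509 single-gene features with 12 values above 0, 65.2%, 64.0% and 59.5% had such a ratio to LHB1B2, PSAN and PSBY on the normalized values, and 90.6%, 87.2% and 84.7% on the deposited ones, so the NDH genes shared this relation with most of the features compared. Against PSB27 and PSBW 0 of 6 NDH genes were higher without overlap, as were 1.96% and 1.38% of the other features on the normalized values and 8.84% and 16.7% on the deposited ones. PSB27 itself rose, by 0.62 on the normalized log2 scale (limma adjusted p = 0.00483). The log2 ratio of CRR41 to PSB27 was lower in prors2 on both scales, by -0.33 as deposited and -0.88 as normalized (exact permutation test, adjusted p = 0.0227 and 0.00406). That of NdhS was called lower as deposited alone, by -0.80 (adjusted p = 0.0115, exact permutation test), and that of PIFI as normalized alone, by -0.79 (adjusted p = 0.0410, same test). Without overlap, 0 of 6 NDH genes were lower against PSB27 as deposited and 1 of 6, CRR41, as normalized, where 9.23% and 26.3% of the other features were.

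Of 60 loci listed for the NDH complex, its assembly, the editing of its transcripts and the alternative PGR5 route, 8 had a single-gene probe. These were 2 of 20 nuclear subunits, 0 of 12 plastid-encoded subunits, 3 of 10 assembly and accessory factors, 3 of 15 RNA factors and 0 of 3 genes of the PGR5 route, so no plastid ndh transcript is described. Beside the 6 genes above, these were Cpn60beta4 and AT3G22690, and 0 of 8 passed after quantile normalization. Cpn60beta4 (AT1G26230), a subunit of the plastid chaperonin that folds the NdhH subunit, had deposited values of 0.0477, 0.0979 and 0.125 (lowest, median and highest of 6) in WT and of 0.173, 0.195 and 0.245 in prors2, with no overlap. Its log2 difference was 1.25 as deposited (SE 0.23, limma adjusted p = 5.01e-04), 0.21 above the median of its brightness bin, and 0.31 after normalization (SE 0.22, limma adjusted p = 0.271). AT3G22690 is the PPR protein YS1, whose known editing target is a transcript of the plastid RNA polymerase and not of an ndh gene; it differed by 0.57 after normalization (SE 0.36, limma adjusted p = 0.227) over the 5 WT samples above 0.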

How the data were processed

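The authors deposited 1 table of relative intensities on a linear scale, from 0 to 100, for 12 arrays, 6 WT and 6 prors2. What the intensity is relative to, the background correction, the software and the genome build are not stated in these sources, and between 2 and 4 features of each array lie at 100 when rounded. The table held 0 value columns of other samples. Gene names came from the platform's annotation, which can be old: 692 probes had 1 gene, 870 had several and 1877 features were not in it. Of the 692, 690 were matched through their gene ID to RefSeq's gene table of TAIR10.1. No array build is given, so no coordinates are printed.

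Zeros were set to missing, values were taken to log2 and quantile-normalized between arrays, since array medians or sums differed by more than 5%. A feature needed at least 4 of 6 values above 0 in each group, which 3024 met, all 6 NDH genes included; 2654 had 12 values above 0. Differences (prors2 minus WT) were fitted over all of them with limma 3.58.1 in R 4.3.3 (lmFit, eBayes, group as the only term), with two-sided p-values adjusted by the Benjamini-Hochberg method and a threshold of 0.05. Ratios between genes were compared on log2 deposited values with two-sided exact permutation tests over samples. Both were tested on simulated data.

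Replicate numbers come from the labels. Same-numbered samples correlated at 0.212 to 0.399 in their deviations from the group means, over 2654 features. For 12 of 12 the best partner in the other genotype had the same number, and partners within a genotype were not compared. The samples are therefore taken as paired, as judged from the data and not from the labels. The main fits and the main permutation tests did not use this pairing, and with it 0 of 15 pairs of NDH genes were called. The smallest p of that paired test, 0.03125, passes after adjustment only if most of the 15 pairs reach it. That count of 0 therefore decides little. The block is an alternative, beside other scalings, an offset for zeros (0.0296), zeros replaced by the smallest value above 0, leaving out the dimmest 25%, complete features only, sets of replicate numbers as a block, trend and robust fits, array weights and leaving out each sample. Cyclic loess and the pairs without OTP85 were added after seeing the data. The genes, lists and tests were chosen with earlier results of these data known. The text names the 6 genes, every listed locus with a single-gene probe, the light-reaction genes set against them and, for each gene with 12 values, the 2 most correlated features.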

Additional observations from a re-analysis of the deposited data

Results flagged for a closer look

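Of 42 groups of values examined (6 genes and 15 ratios in 2 genotypes), 7 held a sample whose gap to its nearest neighbour was large against the range of its group by Dixon's test; chance flags about 1 in 20 groups, and ratios that share a gene are not independent. All 7 were log2 ratios in prors2 replicate 2. The log2 ratio of NdhN to CRR41 was 0.00034 there, against 0.92 to 1.22 in the other 5 prors2 samples, and that of PIFI to CRR41 was -2.38. The other 5 had OTP85 below, over the 5 prors2 samples with a value: NdhN at 5.49, NdhS at 8.73, PIFI at 3.11, CRR41 at 5.49 and CRR21 at 5.33. In this sample CRR41 was the highest of its group at 0.743, NdhN the lowest at 0.743, and OTP85 the lowest value above 0 at 0.0165. Over the 2654 features with 12 values above 0 the same sample stood apart from its group in 1.81%, the most of the 12 samples, which ran from 0.339% upward. It was closely followed by WT replicate 5 at 1.66%, prors2 replicate 1 at 1.62% and WT replicate 6 at 1.51%.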

How the results depend on the processing

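The array-wide count of called features kept within 1.5 times of 1427 under all alternatives, from 1313 to 2016, and from 1329 to 1390 when 1 sample was left out. The count of NDH genes called, 0 of 6, moved to 4 as deposited, 4 at equal sums and 2 after median centring, and stayed at 0 under the other 9 alternatives. It ranged from 0 to 2 when 1 sample was left out, the 2 being NdhN and OTP85 without prors2 replicate 2. OTP85 then had 4 prors2 samples, as replicate 1 was at 0. As deposited and at equal sums NdhN lay at 0.61 and 0.54, CRR21 at 0.80 and 0.72 and OTP85 at 2.42 and 2.35. PIFI turned to 0.79 and 0.71, and all 4 genes were past the threshold. CRR41 turned to 0.31 and 0.23, and NdhS to -0.16 and -0.23. After median centring CRR41 passed at -0.52, and NdhS turned to -0.99 and passed too. NdhN then turned to -0.21 and CRR21 to -0.0288. With zeros at the lowest positive value OTP85 turned to -2.07, as its sample at 0 then enters far below the rest. Leaving out 1 sample gave 0.19 to 0.35 for NdhN, 0.14 to 0.24 for NdhS, -0.37 to -0.07 for PIFI, -0.37 to -0.15 for CRR41, 0.08 to 0.34 for CRR21 and 0.97 to 2.16 for OTP85.

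With the replicate block 1605 features were called, and 0 of 6 NDH genes (NdhN limma adjusted p = 0.105; OTP85 at 0.98). Of the 15 pairs 3 differed, and 0 with the replicate block, where the smallest exact permutation p over 6 pairs of samples is 0.03125 and the 3 pairs had an adjusted p of 0.0938. That smallest p passes after adjustment only if most of the 15 pairs reach it. After quantile normalization 0 pairs differed; NdhN to PIFI turned to 0.42, NdhN to CRR21 to 0.0652, NdhS to PIFI to 0.35 and NdhS to CRR41 to 0.44. With zeros at the lowest positive value the ratios to OTP85 turned for NdhN (0.58), PIFI (0.76), CRR41 (0.28) and CRR21 (0.77). The count of pairs ran from 2 to 10 without 1 sample, 10 without prors2 replicate 2, and PIFI to CRR21 from -0.16 to 0.13. Without prors2 replicate 2 the ratios to OTP85 had only 4 prors2 samples. The share of all pairs of single-gene features called without 1 sample was not computed. With all 12 samples 52.7% of those pairs had an unadjusted exact permutation p of 0.05 or less. Unless stated, the cause was not tested. OTP85 lies in the dimmest bin, and its SE, 0.84, was the largest of the 6 genes after quantile normalization.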
